A study of Mus musculus with 20 samples.

Results

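The genes of oxidative phosphorylation were examined in follicular T cells of the mouse spleen. Members were taken by symbol alone, as every gene whose symbol starts with Nduf, Sdha to Sdhd, Uqcr, Cox4 to Cox8 or Atp5, which are nuclear genes, and every gene of the mitochondrial genome, whose symbols start with mt. This rule found 105 of the 13798 genes in the expression matrix. Of these, 37 were subunits of complex I, 4 of complex II, 8 of complex III, 13 of complex IV and 17 of complex V, 12 were assembly factors of complexes I and II, 13 were encoded by the mitochondrial genome and 1 was the pseudogene Cox5b-ps. The 91 nuclear genes that are not the pseudogene are called the nuclear members below. Cox4i2, Cox6a2, Cox8b and Ndufa4l2 were not analysed here.

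The cells were sorted from the spleens of bone marrow chimeras on the C57BL/6 background as CD45.2+, CD45.1-, CD3+, CD4+, CXCR5+ and PD-1+ cells, and each mouse gave 1 library of 5′ single-cell RNA and 1 library of T cell receptor sequences. Mixed 564Igi chimeras (n = 5, mice 13, 17, 21, 24 and 34) were irradiated wild-type recipients given wild-type marrow together with marrow of 564Igi mice, whose B cells express an inserted self-reactive receptor that binds ribonucleoprotein, and they were not immunized. WT chimeras (n = 5, mice 11, 12, 14, 23 and 36) were irradiated wild-type recipients given only wild-type marrow and were immunized with the hapten-protein conjugate NP-OVA in alum. Recipients of both kinds were 8 to 10 weeks old when irradiated, were of both sexes, and were killed 10 weeks later, so the donor genotype and the immunization cannot be told apart.

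Oxidative phosphorylation couples the oxidation of NADH and succinate to the making of ATP at the inner mitochondrial membrane. Complex I (NADH dehydrogenase), complex II (succinate dehydrogenase), complex III (cytochrome bc1) and complex IV (cytochrome c oxidase) pass electrons to oxygen, and complex V (ATP synthase) uses the proton gradient that complexes I, III and IV build. Complex II is encoded in the nucleus alone, while the other complexes join nuclear subunits with subunits made from the mitochondrial genome, which is transcribed into long precursors covering many genes. T cells are known to shift between glycolysis and respiration as they become activated, form memory or take on a regulatory fate.

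The 28192 cells carried the authors' labels for 6 clusters, namely 11953 activated Tfh cells, 11650 Tfr cells, 2803 cells of a Sostdc1 cluster, 725 central memory cells, 682 effector cells and 379 interferon stimulated cells. Libraries held 1121 to 4030 cells and 3424280 to 15241983 UMIs, and mouse 24 had the fewest of each and the lowest median depth (2728 UMIs per cell). Among T cell genes, Cd3e reached 99.4% of the WT and 99.5% of the 564Igi cells, and Foxp3 marked 56.0% of Tfr cells. Of the B cell genes, Cd79a was seen in 0.224% of WT and 0.282% of 564Igi cells, Ms4a1 in 0.0431% and 0.0677%, Cd79b in 3.98% and 3.05% (5.46% of Tfr cells) and Cd22 in 4.05% and 4.69%, and their part in the results was not tested. Sostdc1 was found in 100% of its cluster, Gzmk in 83.1% of effector cells, Ifit1 in 89.4% of interferon stimulated cells, and Slamf7 in 52.2% of central memory and 42.3% of effector cells. The markers S100a6 and Tnfsf8 did not set activated cells (76.3% and 63.5%) apart from Sostdc1 cells (74.7% and 77.0%), and Cd4 was found in 33.96% of central memory cells against 58.8% to 77.4% of the other clusters. Of all barcodes, 491 occurred in more than 1 library (988 cells).

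Promoters are shown for 5 nuclear members on whose differences between clusters the results turn (chosen after their values were seen), 4 of them with low values in central memory or effector cells and Cox7a2l with high values in central memory cells. Each window is the 250 bases before the RefSeq transcription start, 5′ to 3′ on the gene's strand, from GRCm38.p6. Capitals mark the letters CCAAT or GGGCGG on either strand, the usual CCAAT box and GC box.

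Sdhaf1: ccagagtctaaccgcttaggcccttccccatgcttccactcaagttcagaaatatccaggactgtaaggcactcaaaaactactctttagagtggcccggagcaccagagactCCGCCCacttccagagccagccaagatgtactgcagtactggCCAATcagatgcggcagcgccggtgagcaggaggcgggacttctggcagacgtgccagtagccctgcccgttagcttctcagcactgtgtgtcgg
Cox8a: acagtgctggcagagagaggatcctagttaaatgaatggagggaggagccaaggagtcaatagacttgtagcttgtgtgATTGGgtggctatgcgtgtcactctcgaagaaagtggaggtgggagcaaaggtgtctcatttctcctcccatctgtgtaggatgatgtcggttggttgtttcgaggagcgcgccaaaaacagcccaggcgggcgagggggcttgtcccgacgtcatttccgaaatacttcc
Ndufa13: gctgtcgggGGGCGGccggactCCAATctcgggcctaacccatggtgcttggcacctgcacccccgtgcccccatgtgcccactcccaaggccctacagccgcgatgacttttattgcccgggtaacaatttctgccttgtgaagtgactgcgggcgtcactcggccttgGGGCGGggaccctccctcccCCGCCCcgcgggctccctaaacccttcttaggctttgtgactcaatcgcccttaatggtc
Uqcr10: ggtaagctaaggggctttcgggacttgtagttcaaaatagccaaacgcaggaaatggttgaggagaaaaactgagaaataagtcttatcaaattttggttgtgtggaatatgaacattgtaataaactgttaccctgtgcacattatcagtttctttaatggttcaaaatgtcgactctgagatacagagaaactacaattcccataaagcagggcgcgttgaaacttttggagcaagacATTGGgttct
Cox7a2l: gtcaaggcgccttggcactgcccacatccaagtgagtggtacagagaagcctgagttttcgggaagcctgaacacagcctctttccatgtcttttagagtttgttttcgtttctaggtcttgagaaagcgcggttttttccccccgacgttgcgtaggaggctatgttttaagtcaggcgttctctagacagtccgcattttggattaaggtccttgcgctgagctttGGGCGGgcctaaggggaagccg

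The windows lie on the minus strand at chr7:30322376-30322625 (Sdhaf1), chr19:7217617-7217866 (Cox8a), chr8:69902021-69902270 (Ndufa13), chr11:4704345-4704594 (Uqcr10) and chr17:83514334-83514583 (Cox7a2l). By GENCODE positions the windows of Sdhaf1, Ndufa13 and Cox7a2l lie inside the gene, whose upstream ends are at 30323895, 69902558 and 83517330. These windows therefore belong to a start downstream of the outermost one. The 4 genes with low values each held the CCAAT letters, and Cox7a2l held only the GC box letters. RefSeq windows matched 78 of the 91 nuclear members (83 windows). CCAAT stood in 42.2% of these windows and in 35.3% of the windows of all genes in the matrix (13012 windows), and GGGCGG in 41.0% and 55.6%. The core of the NRF1 site, GCATGCGC, stood in 10.8% of the members' windows and 4.19% of those of all matrix genes, the ETS core CCGGAAG in 19.3% and 13.3%, and the YY1 core AAGATGGC in 1.20% and 2.01%, on either strand. NRF1 and the ETS factor GABP are known regulators of respiratory genes, and matches of letters are a description only.

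Oxidative phosphorylation genes were among the more widely detected genes. The median nuclear member was found in 53.9% of cells and the median mitochondrial gene in 98.8%, against 9.84% for all 9959 genes tested across all cells. Of the members, 103 passed the filter on low values (at least 1% of the cells in at least 5 mice). Cox6b2, the testis isoform of a complex IV subunit, was found in 0.635% of cells and Cox5b-ps in 0.896%, and neither was tested. Of the tissue isoforms, Cox4i1, Cox6a1, Cox6b1, Cox7a2 and Cox8a were each found in most cells (67.5% to 95.8%), and Cox7a1, the heart and skeletal muscle form, in 1.03%. The mitochondrial genes overlap in places (mt-Atp8 and mt-Atp6 by 43 bases, mt-Nd4l and mt-Nd4 by 7 bases, and mt-Nd5 and mt-Nd6 by 14 bases on opposite strands), so reads in these stretches could belong to either gene, and the values do not separate reads from nuclear copies of mitochondrial DNA.

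Together the nuclear members took 2.30%, 2.56%, 2.58%, 2.49% and 2.59% of a cell's corrected counts in WT mice 11, 12, 14, 23 and 36, and 2.39%, 2.58%, 2.67%, 2.57% and 2.58% in 564Igi mice 13, 17, 21, 24 and 34. The groups overlapped, with the lowest value in each belonging to mice 11 and 13. The 13 mitochondrial genes took 3.36%, 3.90%, 3.40%, 3.48% and 3.78% in the WT mice and 3.29%, 3.33%, 3.65%, 3.16% and 3.497% in the 564Igi mice. These ranges overlapped as well, and mouse 24 had the lowest share. Corrected counts are UMI counts that the authors' normalization adjusted for depth, separately in each condition. That normalization also regressed out mitochondrial and ribosomal content and a heat shock score. Whether this step changed the corrected counts was not tested. Cells above a ceiling on the mitochondrial share had been removed (the highest value left was 6.998% of raw UMIs), so the mitochondrial shares are trimmed at the top. Within each mouse, the corrected mitochondrial share still followed the authors' share of raw UMIs over cells (Pearson r between 0.932 and 0.964 over the 10 mice, both computed from the same UMIs).

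Clusters differed in both genomes' transcripts, and not in parallel. The nuclear share was highest in Tfr (mean 2.59%) and Sostdc1 cells (2.58%), followed by activated (2.50%), effector (2.35%), interferon stimulated (2.29%) and central memory cells (2.14%). The mitochondrial share ran from 3.76% in Sostdc1 and 3.64% in activated cells to 3.37% in Tfr, 3.09% in interferon stimulated, 2.89% in central memory and 2.79% in effector cells. The ranges over mice of neighbours in these orders overlapped, so differences are given within mice, as the cluster minus the mouse's other cells. The clusters were made from the same expression values, and these differences are therefore described by how many mice agree in direction and are not tested. Mice entered with at least 20 cells of the cluster, which left 5 WT and 5 564Igi mice in 4 clusters, 4 and 4 in interferon stimulated cells, and 5 and 3 in central memory cells.

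**Figure D1:**
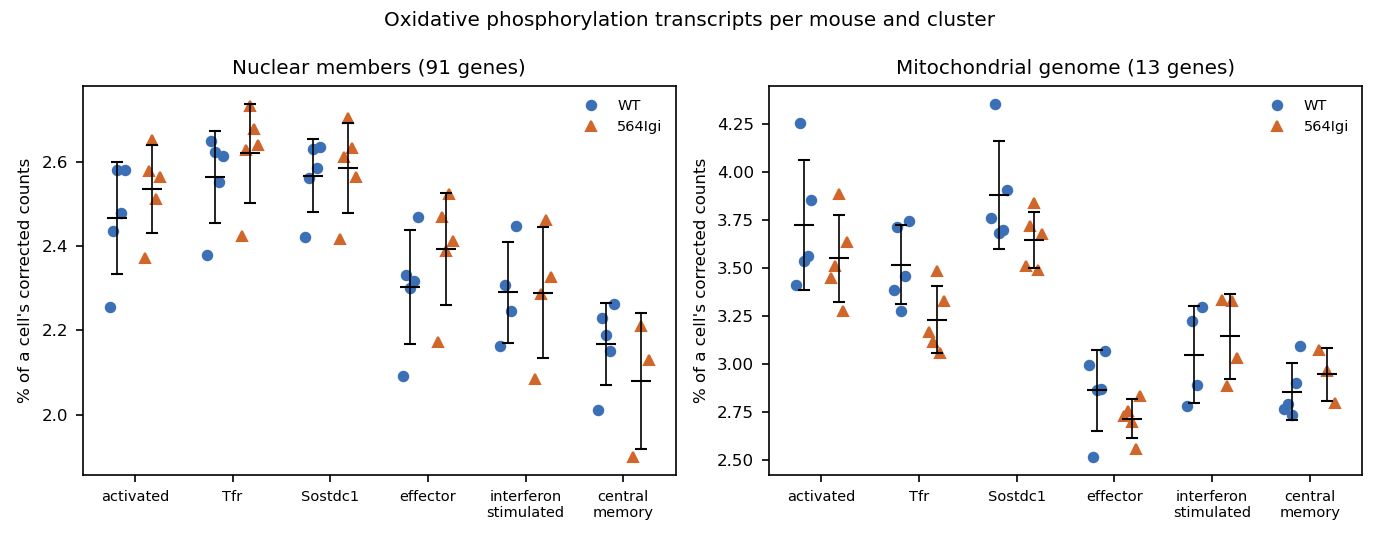
Share of a cell's corrected counts (%, mean over the cells of a mouse) taken by the 91 nuclear members (left) and the 13 mitochondrial genes (right) in each cluster. Each point is 1 mouse (circles WT, triangles 564Igi), bars are the mean ± SD of a group, and the axes do not start at 0. Central memory cells have the lowest nuclear share (mean 2.14%) and effector cells the lowest mitochondrial share (mean 2.79%), and WT and 564Igi mice overlap in every cluster.

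Tfr cells held more nuclear and less mitochondrial transcript than the rest of the cells of the same mouse. Their nuclear share was higher by 0.105 ± 0.051 percentage points (SD, n = 10 mice) in 10 of 10 mice, and their mitochondrial share lower, by -0.1996 ± 0.148, in 9 of 10 (-0.366 with mitochondrial and cytosolic ribosomal genes left out of the denominator). Set against activated Tfh cells directly, the nuclear share of Tfr cells was higher by 0.0913 ± 0.0586 in 10 of 10 mice and the mitochondrial share differed by -0.264 ± 0.157, lower in 10 of 10. The authors' share of raw mitochondrial UMIs was lower in Tfr cells than in the other cells in 10 of 10 mice as well. Cytosolic ribosomal genes took 21.4% of the counts of Tfr cells against 22.5% in other cells (10 of 10 mice lower). This raises the share left to other genes, nuclear members included. Of the 103 members, 21 were higher in Tfr cells in every mouse (background 12.3% of all genes) and 9 lower in every mouse (background 8.59%). All 21 were nuclear, and 5 of the 9 were mitochondrial, but the 9 were near the share of all genes. Background genes were found in fewer cells (median 9.84%, against 53.9% for nuclear members), and these counts were not matched for detection. Against activated cells the counts were 22 (background 12.8%) and 7 (background 7.33%), the latter again near the share of all genes.

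The nuclear members that were high in Tfr cells came from every complex. They included 10 complex I subunits, led by Ndufb7 (+0.10 ± 0.02 on the log2 scale), 3 of the 4 complex II subunits (Sdhb, Sdhc and Sdhd, +0.022 to +0.053), Uqcr11 (+0.10) and Uqcrb (+0.067) of complex III, Cox6c (+0.091) of complex IV, and Atp5d (+0.12), Atp5j, Atp5j2 and Atp5o of complex V. The exceptions among nuclear members were Atp5h (-0.088), Cox6a1 (-0.059), Ndufb10 (-0.058) and Atp5pb (-0.033), lower in 10 of 10 mice. Apart from Cox6c and Cox6a1 these genes were picked for naming after their values were seen, as were other members named in the clusters below for having the same direction in every mouse.

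Sdhaf1, which encodes an assembly factor that helps insert iron-sulfur clusters into the SDHB subunit of complex II, had the widest spread between clusters of the 12 assembly factors. Its mean log2 level in Tfr cells was 0.49, 0.61, 0.56, 0.60 and 0.48 in the WT mice and 0.64, 0.58, 0.60, 0.42 and 0.48 in the 564Igi mice. In activated cells the values were 0.26, 0.37, 0.29, 0.35 and 0.30 and then 0.48, 0.34, 0.37, 0.31 and 0.31. Every mouse was higher in Tfr cells, by +0.21 ± 0.05 against activated cells. The lowest levels were in effector cells (0.16, 0.26, 0.14, 0.24 and 0.11 in WT and 0.20, 0.10, 0.18, 0.18 and 0.14 in 564Igi mice), which lay -0.26 ± 0.06 from the mouse's other cells in 10 of 10 mice. On counts scaled to 10000 per cell, where the added 1 weighs less, the Tfr difference from other cells was +0.36 in place of +0.21 and the effector difference -0.45. The other 11 assembly factors lay between -0.0051 and +0.016 in Tfr cells. The lowest member in Tfr cells was mt-Nd1, a core complex I subunit of the mitochondrial genome (-0.17 ± 0.06, 0 of 10 mice higher).

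Activated Tfh cells showed the reverse in the mitochondrial genome. Activated and Tfr cells made up most of the cells (11953 and 11650 of 28192), so each was most of the other's comparison. Opposite signs between them therefore restate largely the same contrast. Their mitochondrial share was higher than in the other cells by 0.259 ± 0.132 percentage points in 10 of 10 mice, and by 0.449 when mitochondrial and cytosolic ribosomal genes were left out of the denominator. All 13 mitochondrial genes had means above 0 (median +0.080), and 6 of them were higher in every mouse, namely mt-Nd1, mt-Co2, mt-Co3, mt-Atp6, mt-Nd3 and mt-Nd2 (+0.083 to +0.13). The nuclear share was lower by -0.0515 ± 0.0566 in 9 of 10 mice. This count depended on the denominator, since without mitochondrial and ribosomal genes the share was higher in 7 of 10 mice, with a mean difference still just below 0. Over all 103 members, 8 were higher (background 5.22%) and 11 lower (background 11.5%) in every mouse, the latter near the share of all genes. Atp5h, a peripheral stalk subunit of complex V, and Cox6a1 were the 2 nuclear members that were higher in every mouse (+0.063 and +0.050).

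Cells of the Sostdc1 cluster had the most mitochondrial transcript. The mitochondrial share exceeded that of other cells by 0.303 ± 0.113 percentage points in 10 of 10 mice, and 11 of 13 mitochondrial genes were higher in every mouse, from mt-Nd6 (+0.041) to mt-Nd2 (+0.21). Of the nuclear members 6 were higher in every mouse, the complex I subunits Ndufb9, Ndufb4, Ndufa12 and Ndufs6, and Atp5e (+0.090) and Cox8a (+0.10). In all, 17 of 103 members were higher in every mouse (background 5.26%) and 0 were lower (background 5.06%). The nuclear share was higher by 0.0496 ± 0.0453 in 9 of 10 mice. Median depth of Sostdc1 cells was above that of the other cells in 8 of 10 mice. Cytosolic ribosomal genes took 21.3% of their counts against 22.1% in other cells (9 of 10 mice lower).

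Effector cells, marked by Ccl5 and Gzmk, had the lowest ratio of mitochondrial to nuclear transcript (1.19, against 1.46 in activated and in Sostdc1 cells). Their mitochondrial share was lower than in other cells by -0.717 ± 0.289 percentage points and the nuclear share by -0.189 ± 0.079, each in 10 of 10 mice. Of 103 members, 21 were lower in every mouse (background 6.68%) and 0 higher (background 2.33%), and 11 of the 21 were mitochondrial. The largest difference was that of mt-Nd4l, a small core subunit of complex I, at -0.40 ± 0.14. Its log2 level in effector cells was 3.06, 2.89, 2.79, 2.85 and 2.85 in WT and 2.83, 2.65, 2.68, 2.79 and 2.90 in 564Igi mice, against 3.24, 3.61, 3.16, 3.23 and 3.36 and 3.20, 3.05, 3.34, 3.101 and 3.32 in activated cells, so effector cells were lower in every mouse. Uqcr10, a small supernumerary subunit of complex III, was the lowest of its complex (-0.26 ± 0.08, 0 of 10 mice higher, and -0.41 on counts scaled to 10000), with 5 complex V subunits lower in every mouse (Atp5g1, Atp5g2, Atp5g3, Atp5d and Atp5j2, -0.14 to -0.17). Complex IV subunits did not share this, with a median difference of +0.010 and Cox8a at +0.10. The authors' share of raw mitochondrial UMIs, which no correction touched, was also lower in effector cells in 10 of 10 mice (mean 2.80%), and the median depth of effector cells was above that of the other cells in 5 of 10 mice and below it in 5.

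Central memory cells had the lowest nuclear share, -0.383 ± 0.063 percentage points from the other cells of the mouse (8 of 8 mice lower), and a mitochondrial share lower by -0.593 ± 0.282 in 8 of 8. The median mitochondrial gene was at -0.15. The median gene of each mouse, averaged over mice, was at -0.019 in the 3 564Igi mice and -0.20 in the 5 WT mice. Cytosolic ribosomal genes took 26.2% of their counts against 21.8% in other cells (8 of 8 higher), which shrinks the share left to other genes, and their median depth was above that of the other cells in 6 of 8 mice. The part of ribosomal content in the result was not tested. The median nuclear member was at -0.058 on unscaled counts. The median nuclear member of each mouse, averaged over mice, was at -0.107 on counts scaled to 10000 per cell. That average was -0.096 when mitochondrial and cytosolic ribosomal genes were left out of that scaling. Of 103 members, 27 were lower in every mouse (background 10.9%) and 2 higher (background 8.76%). The 27 were 22 nuclear and 5 mitochondrial genes, and the 22 came from complex I (8), complex III (4), complex IV (4), complex V (5) and the assembly factors (1).

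The largest differences in central memory cells were those of small subunits. Cox8a, a small subunit of complex IV, had log2 levels of 1.43, 1.73, 1.75, 1.65 and 1.62 in WT and 1.38, 1.83 and 1.75 in 564Igi mice 13, 17 and 24, against 1.78, 1.91, 2.03, 1.96 and 1.99 and 1.98, 2.12 and 1.97 in activated cells of the same mice. Its difference from the mouse's other cells was -0.35 ± 0.11, lower in 8 of 8. Ndufa13 of complex I, also known as GRIM-19, lay at -0.34 ± 0.07, Uqcr10 at -0.29 ± 0.10, Atp5e, the epsilon subunit of complex V, at -0.27 ± 0.08 and Cox6b1 of complex IV at -0.26 ± 0.07, each lower in 8 of 8 mice. On counts scaled to 10000 per cell these were larger, at -0.53 for Ndufa13, -0.49 for Uqcr10 and -0.49 for Cox8a.

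Cox7a2l went the other way. It encodes a homologue of complex IV subunit 7A that joins complexes III and IV in supercomplexes, and C57BL/6 mice are known to carry a shortened form of the protein. Its log2 level in central memory cells was 1.13, 0.91, 0.88, 1.06 and 1.01 in WT and 1.298, 1.14 and 0.99 in 564Igi mice 13, 17 and 24, against 0.86, 0.66, 0.73, 0.89 and 0.73 and 0.85, 0.94 and 0.74 in their activated cells. All 8 mice were higher, by +0.25 ± 0.11 against the other cells, and by +0.38 on counts scaled to 10000. Among the other 5 clusters its mean level lay between 0.80 and 0.88. The only other member higher in every mouse was the assembly factor Ndufaf4 (+0.052).

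**Figure D2:**
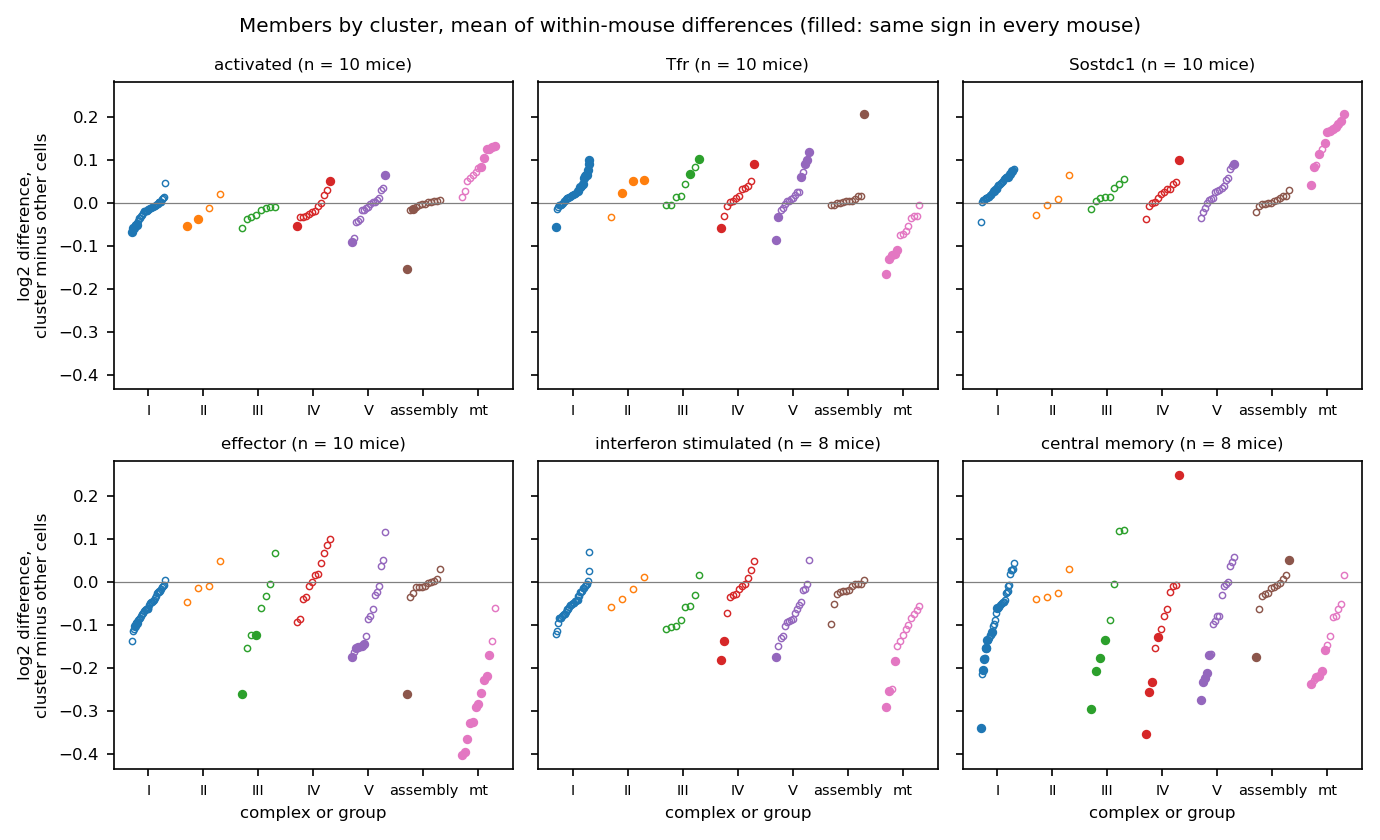
Log2 difference between a cluster and the other cells of the same mouse (mean over mice, vertical axis) for the 103 members with enough detection, split on the horizontal axis into complexes I to V, assembly factors and mitochondrial genes (mt), in 1 panel per cluster. Filled points have the same sign in every mouse. Mitochondrial genes lie above 0 in activated and Sostdc1 cells and below 0 in Tfr and effector cells, and Cox7a2l is the single high complex IV point in central memory cells (+0.25).

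Interferon stimulated cells, defined by genes such as Ifit1 and Isg15, had low values of both kinds, with a nuclear share lower by -0.236 ± 0.066 percentage points (8 of 8 mice) and a mitochondrial share lower by -0.386 ± 0.220 (7 of 8). Of 103 members, 6 were lower in every mouse (background 3.31%) and 0 higher (background 3.11%). They were mt-Cytb (-0.29), mt-Nd4l (-0.25), mt-Nd1 (-0.18), Cox8a (-0.18), the catalytic beta subunit Atp5b (-0.17) and Cox6b1 (-0.14). Median depth of interferon stimulated cells was above that of the other cells in 7 of 8 mice.

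**Figure D3:**
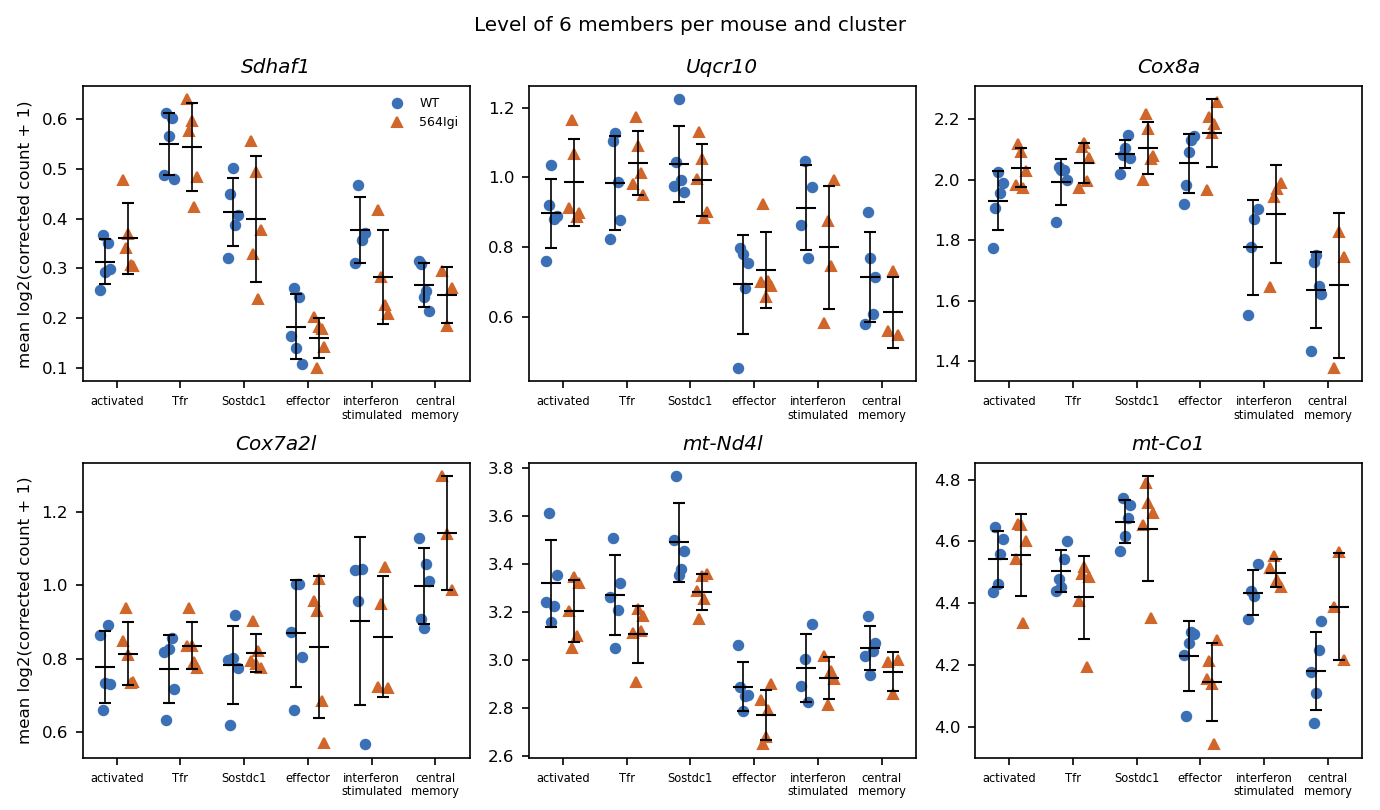
Mean log2(corrected count + 1) of Sdhaf1, Uqcr10, Cox8a, Cox7a2l, mt-Nd4l and mt-Co1 in each cluster, 1 panel per gene, each point 1 mouse (circles WT, triangles 564Igi), bars the mean ± SD of a group, axes not starting at 0. Sdhaf1 is highest in Tfr cells and lowest in effector cells, Uqcr10 is low in effector and central memory cells, and Cox7a2l reaches 0.88 to 1.298 in central memory cells.

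Genes around the respiratory chain, from lists of related pathways, gave a partly similar picture. In central memory cells 15 of 16 glycolysis genes had means below 0 (median -0.14), and the summed glycolysis share was 0.335% against 0.536% in other cells (8 of 8 mice lower). In effector cells all 16 were below 0 (median -0.12), and in interferon stimulated cells 14 of 16 (median -0.086). Sostdc1 cells had 14 of 16 above 0 (median +0.085). Tfr cells had 13 of 16 above 0 (median +0.033), while all 13 of their mitochondrial genes lay below 0. Activated cells had 14 of 16 below 0 (median -0.026), while all 13 of their mitochondrial genes lay above 0. Mitochondrial ribosomal proteins (78 genes) had medians between -0.022 in effector and +0.010 in Sostdc1 cells. Medians lay between -0.0082 and +0.011 for mitochondrial transcription and biogenesis (23 genes), and between -0.013 and +0.017 for the tricarboxylic acid cycle list (18 genes). The mitochondrial genome's medians ran from -0.28 to +0.16, but log2(count + 1) shrinks differences of genes with low levels, so these sizes are not comparable. As a share of counts, mitochondrial ribosomal genes took 0.575% against 0.638% in effector cells (10 of 10 mice lower). They took 0.599% against 0.652% in interferon stimulated cells (8 of 8 lower), and were higher in Sostdc1 cells in 8 of 10 mice and in Tfr cells in 9 of 10. The central memory cluster had a median of +0.26 over 97 cytosolic ribosomal genes. Within single cells of 1 cluster, nuclear and mitochondrial shares hardly moved together (median Pearson r over mice -0.105 in activated, -0.0868 in Tfr and -0.0318 in Sostdc1 cells), which is a description over cells that share a library and a total.

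Between mixed 564Igi and WT chimeras no member was called in any comparison. The test was limma on the mean log2 level of each mouse, over all genes with enough detection, and a call needed a Benjamini-Hochberg adjusted p under 0.01 and a difference over 0.2. Across all cells 0 of 103 members were called (background 0.010% of 9959 genes, which is Gm42031 alone) and 1 had an unadjusted p under 0.05 (0.971%, against 3.19% of all genes). The 95% interval of the difference lay within 0.2 on either side of 0 for 86 of 103 members. For members with levels near 0, such as Cox7a1 (mean log2 level 0.010), Sdhaf3 (0.028) and Ndufaf6 (0.044), even a doubling would stay under 0.2. Narrow intervals and the lack of a call therefore say little about such members. The median nuclear member differed by +0.023 (564Igi minus WT), with 73 of 90 above 0, and the median mitochondrial gene by -0.055, with 10 of 13 below 0, while the median over all genes was -0.0018.

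The medians of the nuclear complexes ran from +0.0048 for complex II through +0.017 for complex I, +0.034 for complex III and +0.047 for complex IV to +0.048 for complex V, and that of the assembly factors was -0.0030. All 17 complex V and all 12 complex IV subunits tested, grouped by symbol, had values above 0. Ndufa4, which is now placed with complex IV, was grouped with complex I by its symbol and lay below 0. Genes of a complex share libraries and mice, and none passed the test. Atp5e had the highest value of all members, with log2 levels of 1.77, 2.02, 2.12, 1.95 and 2.05 in WT and 1.86, 2.23, 2.18, 2.16 and 2.05 in 564Igi mice. These groups overlapped, the difference was +0.11 (95% interval -0.090 to +0.32), and adjusted p was 0.9997 by limma. Cox8a (+0.085), Atp5mpl (+0.077), Atp5k (+0.072) and Atp5md (+0.071), the last 3 small membrane subunits of complex V, followed. Without WT mouse 11 the values were +0.062 for Atp5e and +0.045 for Cox8a, and without 564Igi mouse 17 they were +0.026 for Atp5mpl and +0.015 for Atp5md.

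The 5 lowest nuclear members were Ndufa4 (-0.023), a subunit named for complex I that is now placed with complex IV, Ndufb6 (-0.011), Ndufa9 (-0.0098) and the assembly factors Ndufaf6 (-0.0084) and Ndufaf4 (-0.0074). Leaving out mouse 24 alone made Ndufa4 (+0.0031), Ndufb6 (+0.012) and Ndufa9 (+0.0047) positive, as leaving out mouse 13 did for Ndufa4 (+0.0056), and leaving out mouse 17 turned Atp5k to -0.0024. Glycolysis genes had a larger median than any respiratory complex (+0.12, 14 of 16 above 0, none called), as did cytosolic ribosomal genes (+0.090, 88 of 97 above 0, none called).

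In the mitochondrial genome mt-Nd4l had the lowest value. Its log2 level was 3.24, 3.55, 3.11, 3.21 and 3.34 in WT and 3.16, 2.99, 3.25, 3.097 and 3.26 in 564Igi mice, a difference of -0.14 (95% interval -0.32 to +0.035), or -0.076 without mouse 12. mt-Co3, which encodes a core subunit of complex IV, had the highest (+0.030), and turned to -0.0095 on counts scaled to 10000 and to -0.0016 without mouse 17. mt-Nd6, the only mitochondrial member on the opposite strand, was the 1 member with an unadjusted p under 0.05 and was chosen for that reason: 0.40, 0.36, 0.34, 0.33 and 0.33 in WT against 0.37, 0.30, 0.29, 0.27 and 0.29 in 564Igi mice, -0.048, with an adjusted p of 0.9997 by limma. Mouse 13 lay above 4 of the 5 WT mice, so the groups overlapped. The median of the mitochondrial genes was +0.0027 without mouse 24 and -0.021 without mouse 36, in place of -0.055, and that of the nuclear members ran from +0.0097 to +0.041 when 1 mouse was left out. Mouse 24 also had the lowest authors' share of raw mitochondrial UMIs (2.88%, the other 9 mice 3.32% to 3.73%).

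**Figure D4:**
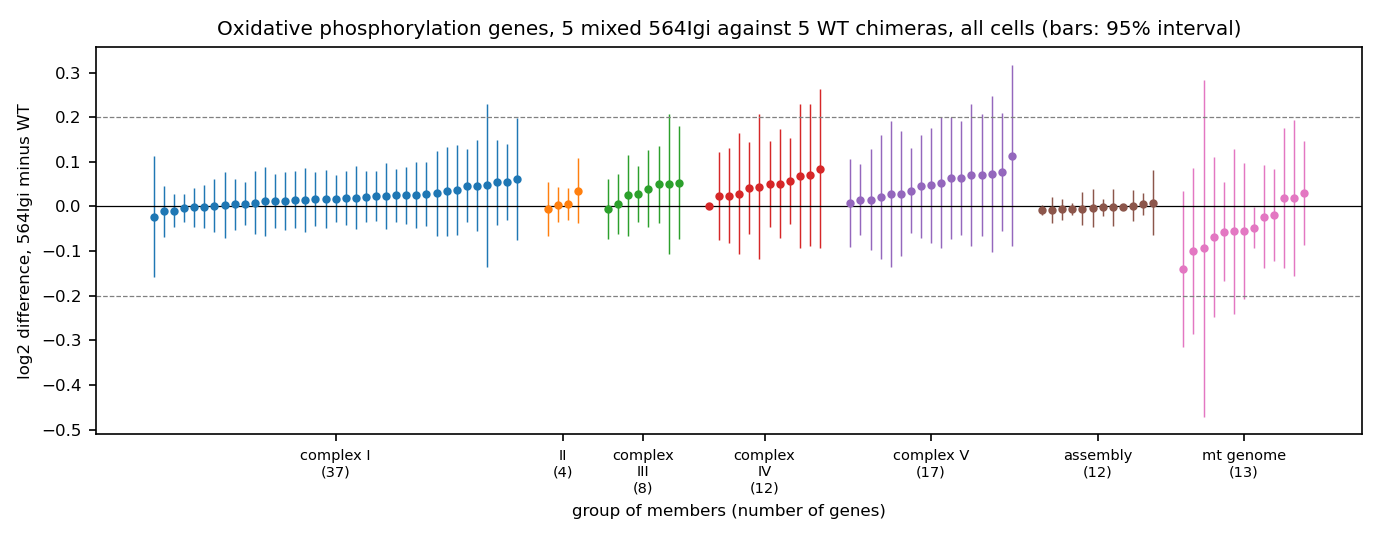
Log2 difference of each tested member between 5 mixed 564Igi and 5 WT chimeras over all cells (points, vertical axis) with its 95% interval (bars), sorted within complexes I to V, assembly factors and the mitochondrial (mt) genome on the horizontal axis, dashed lines at -0.2 and 0.2. Every interval but that of mt-Nd6 includes 0, and complex IV and V points all lie above 0, with Ndufa4 grouped under complex I by its symbol.

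Some members varied more between libraries than the means of the groups differed, and library and mouse cannot be told apart. mt-Atp8, the shortest protein-coding gene of the mitochondrial genome, had log2 levels of 1.74 and 1.54 in libraries T36 (WT) and T34 (564Igi), which are numbered apart from the rest, and of 1.21 and 1.51 in T1 (WT) and T2 (564Igi), against 0.54 to 0.9996 in the other 6. Its interval was therefore the widest of all members (-0.47 to +0.28). Atp5k (0.86 and 0.92) and Ndufa3 (1.23 and 1.33) were highest in T1 and T2, with 0.38 to 0.74 and 0.82 to 1.17 elsewhere. Of the 90 nuclear members 21 (23.3%) had their highest WT value in T1 and their highest 564Igi value in T2, against 15.3% of all genes. mt-Atp8, Atp5k and Ndufa3 were chosen here for their spread. Within neighbouring libraries with 1 mouse of each kind, the nuclear share in 564Igi minus WT was +0.0031 percentage points for T2 and T1, +0.177 for T12 and T11 and -0.0073 for T34 and T36, and the mitochondrial share -0.0667, +0.174 and -0.285, so no direction held within them. Libraries T3 and T4 were both WT and T7 and T8 both 564Igi.

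Within clusters the same test called 0 of 103 members in activated cells (background 0.0101%, Gm42031), 0 of 103 in Tfr cells (0.0200%, Gm42031 and Ly6a), 0 of 103 in Sostdc1 cells (0.0202%, Gm42031 and Tpt1), 0 of 102 in effector cells (0.0104%), 0 of 101 in interferon stimulated cells (0.0106%) and 0 of 104 in central memory cells (background 0%). Unadjusted p-values under 0.05 numbered 0 in activated (3.99% of all genes), 0 in Tfr (3.502%), 3 in Sostdc1 (2.91%, against 4.60% of all genes), 3 in effector (2.94%, against 5.22%), 0 in interferon stimulated (4.20% of all genes) and 10 in central memory cells. The median mitochondrial difference was -0.028 in activated, -0.084 in Tfr (13 of 13 below 0), -0.069 in Sostdc1 and -0.060 in effector cells, and +0.025 in interferon stimulated and +0.049 in central memory cells. Leaving out 1 mouse moved the activated median to between -0.046 and +0.034, the positive values being +0.034 without mouse 24 and +0.0032 without mouse 36, while the value without mouse 12 was -0.0044. The Tfr median was -0.034 without mouse 24 and -0.052 without mouse 36. Median nuclear differences ran from -0.0033 in central memory to +0.036 in activated cells.

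The members nearest to a difference in each cluster, chosen after their values were seen, are given next. In Sostdc1 cells mt-Nd4l was 3.499, 3.77, 3.36, 3.38 and 3.45 in WT and 3.29, 3.17, 3.35, 3.25 and 3.36 in 564Igi mice (-0.21, adjusted p = 0.97 by limma). In effector cells mt-Nd6 differed by -0.13 (adjusted p = 0.88 by limma), and Ndufab1, the mitochondrial acyl carrier protein and a complex I subunit, by -0.12 (adjusted p = 0.94 by limma). In central memory cells, with 3 564Igi mice, mt-Co3 was 3.75, 3.55, 3.61, 4.01 and 3.89 in WT and 4.13, 4.17 and 3.85 in 564Igi mice (+0.29, adjusted p = 0.55 by limma) and mt-Co1 differed by +0.21. The 10 central memory members under 0.05 were 9.62% of those tested, near the 7.57% of all genes, with 6 higher and 4 lower.

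Whether the 564Igi difference itself differed between Tfr and activated cells was tested within mice. No member was called (0 of 103, background 0%), and 11 had an unadjusted p under 0.05 (10.7%, against 7.27% of all genes). The mitochondrial genes leaned one way, with 12 of 13 below 0 (median -0.056), led by mt-Co1 (-0.100, adjusted p = 0.57 by limma) and mt-Nd4 (-0.096, adjusted p = 0.55). mt-Co1 in Tfr cells lay below activated cells by -0.14 ± 0.015 in 564Igi mice and by -0.039 ± 0.073 in WT mice. The 95% intervals of all 103 members lay within 0.2 on either side of 0, a limit that members with levels near 0 could hardly pass.

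Clone size came from the T cell receptor libraries and so did not depend on the expression values. Cells of expanded clonotypes (at least 3 cells of a mouse sharing alpha and beta CDR3 sequences) were set against cells of clonotypes seen once, within each of the 10 mice, in activated (5783 and 2416 cells) and Tfr cells (4937 and 2972 cells). By the full rule 0 of 103 members were called in either cluster (background 0% in both), and all 103 intervals lay within 0.2 on either side of 0. Members with levels near 0 could hardly pass that limit. Dropping the limit on size and asking for an adjusted p under 0.05, 6 of 103 members passed in activated cells (background 6.05% of all genes) and 1 passed in Tfr cells (background 1.38%). Members thus passed no more often than genes in general, and those named below are single genes, not a trait of the group. Unadjusted p-values under 0.05 were as frequent as among all genes (23.3% and 22.4% in activated cells, 16.5% and 17.9% in Tfr cells). Most such genes were lower in expanded clonotypes (1791 lower and 414 higher in activated cells, 1492 and 300 in Tfr cells). Of the members, 9 were lower and 15 higher in activated cells, and 10 and 7 in Tfr cells.

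Atp5g3 was the member that passed in both clusters. It encodes the same mature c subunit of the ATP synthase ring as Atp5g1 and Atp5g2. In activated cells its level in expanded clonotypes exceeded that in clonotypes seen once by +0.083 (95% interval +0.056 to +0.11, 10 of 10 mice, adjusted p = 0.0095 by limma), and in Tfr cells by +0.049 (+0.027 to +0.072, 9 of 10 mice, adjusted p = 0.043 by limma). On leaving out 1 mouse at a time, the adjusted p by limma stayed at or under 0.026 in activated cells but reached 0.05 or more for 9 of the 10 mice in Tfr cells (up to 0.10). Cox7a2l went down in activated cells, from 1.004, 0.83, 0.82, 0.97 and 0.78 in WT and 0.87, 1.001, 0.93, 0.83 and 0.81 in 564Igi mice to 0.83, 0.61, 0.75, 0.85 and 0.67 and 0.86, 0.96, 0.83, 0.72 and 0.76. All 10 mice were lower (-0.10, 95% interval -0.14 to -0.059, adjusted p = 0.018 by limma). Without WT mouse 23 its adjusted p was 0.051 by limma. In Tfr cells its difference was -0.049 with 7 of 10 mice lower (adjusted p = 0.18 by limma).

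The other 4 members that passed in activated cells were Atp5j, coupling factor 6 of complex V (+0.053, 8 of 10 mice higher), Sdhb, the iron-sulfur subunit of complex II (-0.048, 0 of 10), Cox4i1, the common form of complex IV subunit 4 (-0.081, 1 of 10), and Ndufa10 of complex I (-0.036, 2 of 10), with adjusted p between 0.033 and 0.047 by limma. None of these 4 passed throughout when 1 mouse was left out: adjusted p reached 0.05 or more for 8 of the 10 mice with Atp5j, 6 with Sdhb, 7 with Cox4i1 and 8 with Ndufa10 (up to 0.10 by limma). mt-Nd2 had the largest value of the mitochondrial genes there (+0.091, 8 of 10 mice, adjusted p = 0.13 by limma). The median mitochondrial gene was +0.026 in activated cells, with 11 of 13 above 0, and -0.028 in Tfr cells, with 0 of 13 above 0, while none passed in either. In Tfr cells mt-Nd3 had the lowest value of all members (-0.059) and Cox8a (+0.062) and Cox6c (+0.051) the highest. Cytosolic ribosomal genes were lower in expanded clonotypes in the same comparison (median -0.078, 42 of 97 lower at adjusted p under 0.05 in activated cells, and -0.056, 9 of 97, in Tfr cells), and their part in the members' values was not tested.

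**Figure D5:**
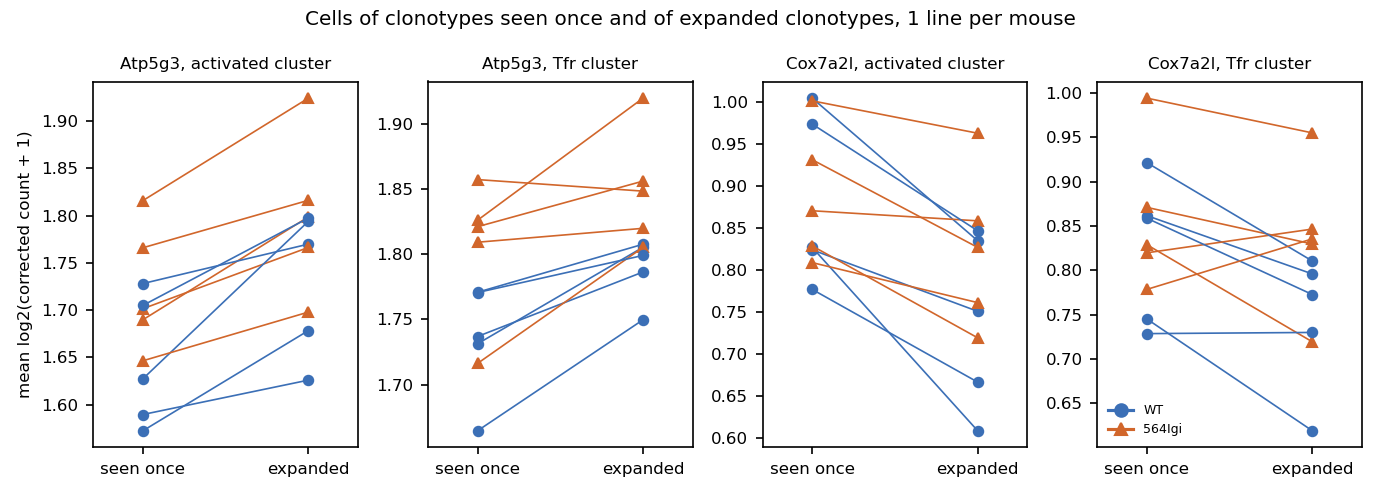
Mean log2(corrected count + 1) of Atp5g3 and Cox7a2l (vertical axes, not starting at 0) in cells of clonotypes seen once and of expanded clonotypes, in activated and Tfr cells. Each line joins the values of 1 mouse (circles WT, triangles 564Igi). Atp5g3 goes up in 10 of 10 mice in activated cells and 9 of 10 in Tfr cells, and Cox7a2l goes down in 10 of 10 in activated cells and 7 of 10 in Tfr cells.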

How the data were processed

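Follicular T cells of 5 WT and 5 mixed 564Igi chimeras were profiled by 10x 5′ RNA and T cell receptor sequencing. The authors aligned reads with Cell Ranger 4.0.0 to GRCm38 (mm10), filtered cells by gene number, reads, mitochondrial and ribosomal share and high S or G2/M scores (a doublet step is not given in the sources used here, and none was run), and normalized each condition with sctransform in Seurat 3.1.4, with mitochondrial and ribosomal content, UMI number and heat shock regressed out and receptor genes removed. The deposited matrix holds the natural log of the corrected count plus 1, and 100% of values were whole once the log was undone (relative tolerance 1e-06), but these are not raw reads. The deposited cell table gave raw UMI counts, genes per cell, percent of mitochondrial and ribosomal UMIs, and a heat shock score, as the authors computed them, with mouse, condition and cluster. Normalizing each condition separately can move differences between conditions.

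Corrected counts were averaged per mouse and cluster (at least 20 cells) as log2(count + 1). A gene was tested if its transcripts were seen in 1% or more of cells, in no fewer mice than the smaller group has, using limma 3.58.1 in R 4.3.3, with Benjamini-Hochberg adjustment over all genes tested. A call needed adjusted p under 0.01 and a difference over 0.2. The Tfr and activated difference and the clone size comparison used within-mouse differences. Intervals are 95% intervals from limma. Cluster against other cells was not tested, since clusters came from the same values. Shares are percent of corrected counts. Sums and figures used Python 3.11.15, numpy 2.4.6, pandas 2.3.3, scipy 1.17.1 and matplotlib 3.10.9.

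The fits were tested on simulated data of the same means and spread. Each mouse gave 1 library, and mice are the replicates. Totals ran from 3424280 to 15241983 UMIs per mouse, and counting error limits the least detected genes most. Members and lists were chosen with earlier results of these data known. Genes named with values are the 5 highest and 5 lowest nuclear and the highest and lowest mitochondrial differences between conditions, the largest gap between clusters per complex, tissue isoforms, and the 2 largest and 2 smallest clone size differences per cluster. Others are said to be chosen after their values were seen. Promoter windows are from RefSeq (GRCm38.p6) and gene positions from GENCODE vM21. Alternatives were other scalings, pseudocounts, filters and cell minimums, and leaving out each mouse.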

Additional observations from a re-analysis of the deposited data

Results flagged for a closer look

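The level of Cox8a over all cells in WT mouse 11 was 1.81 on the log2 scale, below the other 4 WT mice (1.99 to 2.03), and its gap to the nearest of them was 0.837 of the group's range, above Dixon's 95% critical value of 0.71 for 5 samples. Chance flags about 1 group in 20, and 70 groups were examined for such a sample. Mouse 11 had the highest median depth of the WT mice (3823.5 UMIs per cell).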

How the results depend on the processing

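No paired analysis was possible because WT and 564Igi chimeras share no mice, and the clone size and cluster comparisons are already within mice. No member was called between conditions in any of the alternatives tried (120 within clusters, 21 over all cells and 18 for the Tfr and activated difference). With an adjusted p under 0.05 and no limit on size, 6 members passed for clone size in activated cells and 1 in Tfr cells, as described above, and 0 were called in the other 36 of 38 alternatives. The alternative on cells with several receptor chains was not run, since 0 of 33833 cells in the receptor table listed more than 2 sequences.

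On counts scaled to 10000 per cell, the median nuclear difference was -0.0786 in effector, -0.0740 in interferon stimulated and -0.107 in central memory cells, and -0.0901, -0.0860 and -0.0961 when mitochondrial and cytosolic ribosomal genes were left out of the scaling. The latter also moved the median mitochondrial difference in activated cells to 0.133. With the same genes left out of the denominator, chosen after seeing the data, the mitochondrial share differed by 0.449 in activated and -0.366 in Tfr cells and the nuclear share by -0.341 in interferon stimulated cells. In the 564Igi mice alone the median mitochondrial difference of central memory cells was -0.0194. The medians in this paragraph were taken over genes in each mouse and then averaged over mice.

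Between conditions mt-Co3 turned to -0.00946 on scaled counts and -0.0103 with the log of the mouse mean, which also moved the median of all genes to -0.053. Leaving out 1 mouse gave ranges of -0.00162 to 0.0782 for mt-Co3, -0.00239 to 0.149 for Atp5k, -0.0484 to 0.00560 for Ndufa4, -0.0166 to 0.00470 for Ndufa9 and -0.0227 to 0.0119 for Ndufb6. The causes were not tested. Mice with few central memory cells and genes in few cells limit precision most.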

Other observations

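Of the members described as low in central memory cells, Cox8a lay in effector cells at +0.10 ± 0.08 from the other cells of the mouse (8 of 10 mice higher), Uqcr10 at -0.26 ± 0.08 (0 of 10), Atp5e at -0.16 ± 0.13 (1 of 10), Ndufa13 at -0.023 ± 0.11 (4 of 10) and Cox6b1 at -0.039 ± 0.12 (4 of 10). In interferon stimulated cells 16 of 17 complex V subunits and all 13 mitochondrial genes had means below 0.

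In the comparison of the 564Igi difference between Tfr and activated cells, 14 of 15 glycolysis genes also lay below 0 (median -0.033), with 0 called, 3 at an unadjusted p under 0.05 and the smallest adjusted p at 0.63 by limma.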
